A study of Mus musculus with 4 samples.

Results

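Granzymes and the other effectors of cytotoxic lymphocytes were followed in T29 cells exposed to a gamma-secretase inhibitor. The set comprised 10 genes: the granzymes Gzma, Gzmb, Gzmc, Gzmk and Gzmm, the pore former Prf1, the granule proteins Nkg7 and Srgn, and the transcription factors Tbx21 and Eomes. Every probe set whose only annotated symbol was one of these names was taken, which gave 12 of the 45101 probe sets on the array, with 2 probe sets each for Prf1 and Eomes. No probe set named a member together with another gene. T29 is a mouse line from a thymic lymphoma, studied without an untreated group, on 4 Affymetrix arrays. The 2 arrays of the control group carried RNA from cells given DMSO, the solvent, and the 2 arrays of the GSI group RNA from cells given the inhibitor MRK003, written in the labels as 5 mM for 36 h. All cells grew in the same serum-containing medium. The treatment text was the same for all 4 samples, so groups were read from the titles, and the dose unit could not be checked. Whether the replicates came from separate cultures is not stated. The p-values therefore reflect the scatter among these 4 samples alone, which may be technical, and all come from 1 line.

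Cytotoxic T cells and natural killer cells kill by releasing granules. Perforin opens the membrane of the target cell, and granzymes, a family of serine proteases, enter and cut proteins there, while the proteoglycan serglycin holds granzymes in the granule in an inactive packed form. The T-box factors T-bet and eomesodermin drive much of this gene programme, and Notch signalling, which gamma-secretase makes possible by cleaving the Notch receptor, is known to act on Gzmb, Prf1 and Eomes in peripheral killer T cells. Thymocytes are not killer cells, although Gzma transcripts are known in immature T cells of the thymus.

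The sequences in front of the start sites of 3 members are shown because the results turn on these genes: Gzma and Srgn were the members that rose, and Gzmk is the measured gene next after Gzma in the gene order of mouse chromosome 13. They are RefSeq sequences of GRCm38.p6, each the 250 bases before the start site, written 5′ to 3′ on the strand of the gene, which is the minus strand for all 3. Gzma lies at chr13:113100982-113101231, Gzmk at chr13:113180966-113181215 and Srgn, at the first of the 2 start sites listed, at chr10:62527446-62527695. Capitals mark matches to any of 5 short motifs searched on both strands: TGGGAA (the core bound by the Notch partner RBPJ), GGTGTG (a T-box core), TGTGGT (Runx), CANNTG (the E-box) and TTCNNNGAA (STAT).
Gzma: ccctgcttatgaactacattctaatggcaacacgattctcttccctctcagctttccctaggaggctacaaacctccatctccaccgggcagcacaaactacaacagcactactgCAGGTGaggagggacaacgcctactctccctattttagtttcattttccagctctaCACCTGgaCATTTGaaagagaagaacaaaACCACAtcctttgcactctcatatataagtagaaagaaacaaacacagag
Gzmk: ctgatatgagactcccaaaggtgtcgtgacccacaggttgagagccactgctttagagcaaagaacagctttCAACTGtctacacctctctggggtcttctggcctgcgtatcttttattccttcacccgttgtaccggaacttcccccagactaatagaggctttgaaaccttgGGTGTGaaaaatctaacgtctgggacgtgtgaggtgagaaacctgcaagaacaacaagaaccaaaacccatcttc
Srgn: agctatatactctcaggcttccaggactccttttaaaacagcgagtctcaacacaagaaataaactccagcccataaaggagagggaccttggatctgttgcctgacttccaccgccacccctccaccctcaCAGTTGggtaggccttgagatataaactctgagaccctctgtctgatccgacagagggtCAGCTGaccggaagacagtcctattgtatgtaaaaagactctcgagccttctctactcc

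The Gzma window held 3 E-box matches and 1 Runx match, the Srgn window 2 E-box matches, and the Gzmk window 1 E-box match and 1 T-box core. None of the 3 windows held TGGGAA, and among the members this core was found in the windows of Prf1 and Tbx21, once each. The window of the second Srgn start site, not printed here, held 3 E-box matches and 1 Runx match. Runx matches also lay in windows of Gzmb, Gzmc, Gzmm, Prf1 and Nkg7, which did not pass the test below. These are common letters: of 32851 mouse promoter windows of the same length, 66.2% held an E-box match, 21.6% TGGGAA, 16.3% the T-box core, 14.0% the Runx motif and 7.02% the STAT motif. A match describes the letters and not a bound site, and the absence of one says only that these letters are not in this window. Both Gzma and Srgn, which moved the same way, held an E-box, as did most windows.

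With the inhibitor, 2 of the 10 genes rose, Gzma and Srgn, and 8 did not pass the test. Differences were tested with limma on the deposited log2 values, fitted over 18193 genes, each represented by its brightest probe set, and a gene was called at a Benjamini-Hochberg adjusted p under 0.05. Over all genes 2.56% were called higher with GSI and 1.56% lower. Of the members, 0 were called lower by limma, and the unadjusted p of limma was under 0.05 for 0 members that read lower. Without adjustment 10.8% of all genes read higher and 10.7% lower at p under 0.05. The median difference of the 10 genes was 0.016 on the log2 scale, against -0.012 over all genes.

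**Figure D1:**
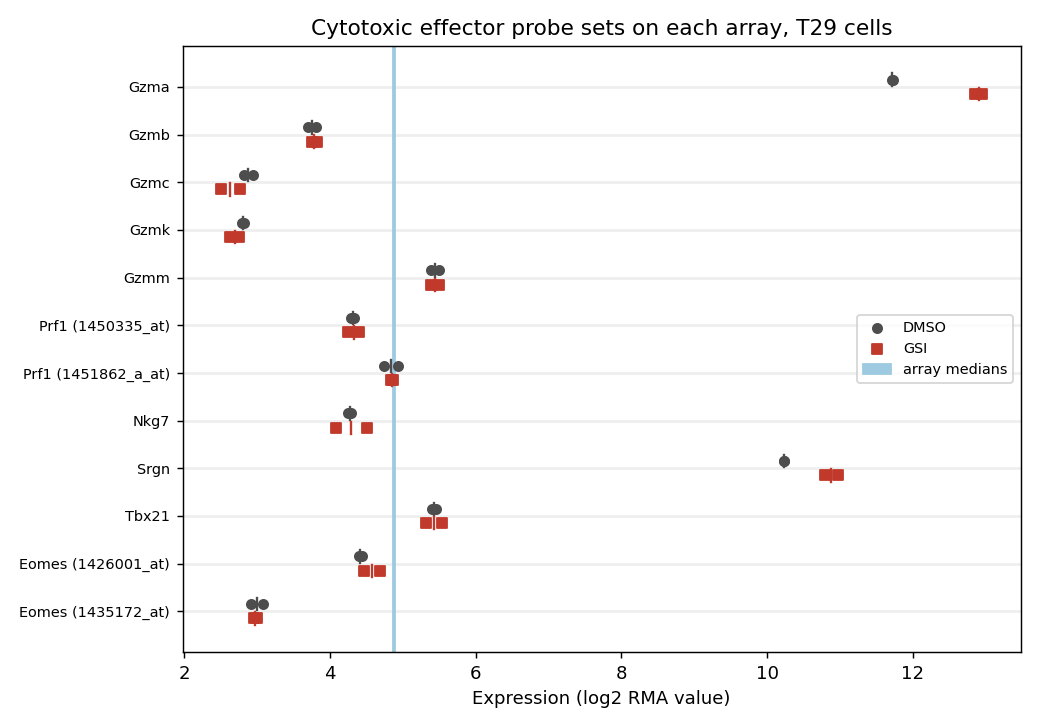
Expression of the 12 probe sets (rows) on each array, as log2 RMA values on the horizontal axis. Dark circles are the 2 DMSO arrays, red squares the 2 GSI arrays, short vertical bars the group means, and the blue band spans the medians of the 4 arrays, 4.86 to 4.89. The squares of Gzma and Srgn lie to the right of both circles, and those of the other members lie among or close to theirs.

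Among the granzymes, Gzma, a tryptase that cuts proteins after basic residues, was the 1 member of its family that rose. Its log2 values were 11.72 on both DMSO arrays and 12.95 and 12.86 with GSI. Both GSI arrays thus stood more than 1 unit above both controls, while the controls lay within 0.0051 of each other. The difference was 1.19 ± 0.086 on the log2 scale (SE, n = 2 per group), a 2.28-fold rise with a 95% interval of 1.97 to 2.64 (limma, adjusted p = 0.00440). By size of the difference, Gzma ranked 61 among the 466 genes called higher. It also passed when every probe set was tested on its own, among 45037 (limma, adjusted p = 0.0102).

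Gzmb, the granzyme that cuts after aspartate and activates caspases, read 3.81 and 3.71 with DMSO and 3.82 and 3.75 with GSI. The arrays of the 2 groups interleaved, and the difference was 0.026 with a 95% interval of -0.19 to 0.25 on the log2 scale. Gzmc, from the same granzyme cluster on chromosome 14, read 2.82 and 2.94 with DMSO and 2.51 and 2.76 with GSI. Here the groups did not overlap, both GSI arrays being lower, yet the difference of -0.24 did not pass (limma, adjusted p = 0.301). Its GSI arrays lay 0.26 apart, wider than the difference itself, and with 1 array left out the difference ran from -0.37 to -0.12.

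Gzmk, a tryptase like Gzma, read 2.82 and 2.80 with DMSO and 2.64 and 2.75 with GSI. The GSI arrays were the lower pair, by 0.12 on the log2 scale, and this did not pass (limma, adjusted p = 0.516). Gzma and Gzmk, which lie side by side but for a non-coding gene not analysed here, thus read 1.19 and -0.12 under the same treatment. On the other side of Gzma, Gpx8, encoding a glutathione peroxidase relative, differed by -0.091 (limma, adjusted p = 0.849). Gzmm, which cuts after methionine or leucine, read 5.40 and 5.50 with DMSO and 5.49 and 5.39 with GSI. The 2 pairs covered the same range, and the difference was -0.0038 with an interval of -0.23 to 0.22.

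Prf1, encoding perforin, was measured by 2 probe sets, and neither passed. The brighter one read 4.75 and 4.94 with DMSO and 4.87 and 4.83 with GSI. The other read 4.29 and 4.34 with DMSO and 4.25 and 4.41 with GSI. In both the arrays of the groups overlapped, and the differences were 0.0078 and 0.015 on the log2 scale. For the brighter probe set the interval ran from -0.24 to 0.25, which corresponds to 0.849-fold to 1.19-fold.

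Of the granule proteins, Srgn, encoding serglycin, was the other member that rose. It read 10.23 on both DMSO arrays, and 10.97 and 10.79 with GSI. The controls lay within 0.0029 of each other and below both GSI arrays. The difference was 0.66 ± 0.096 (SE, n = 2 per group), a 1.57-fold rise with a 95% interval of 1.34 to 1.86 (limma, adjusted p = 0.0284). Tested among all probe sets, that of Srgn fell short of the threshold (limma, adjusted p = 0.0535). Its measured neighbours in the gene order of chromosome 10, Vps26a and Kifbp, differed by 0.098 and 0.091 on the log2 scale and did not pass. A non-coding gene, Gm51804, follows Srgn in that order and was not analysed here, nor was which transcripts the Srgn probes bind.

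Nkg7, a membrane protein of the granules that is needed for their release, read 4.25 and 4.29 with DMSO and 4.51 and 4.08 with GSI. The GSI arrays lay on either side of both controls, 0.43 apart. This was the widest replicate gap among the 12 probe sets, and the interval of the difference, from -0.35 to 0.40 on the log2 scale, was correspondingly wide.

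The transcription factors did not pass either. Tbx21, encoding T-bet, read 5.40 and 5.45 with DMSO and 5.32 and 5.54 with GSI. The group means were equal within 1e-06, the GSI arrays enclosing the controls, and the interval ran from -0.26 to 0.26. Eomes was read by 2 probe sets. The brighter one read 4.44 and 4.40 with DMSO and 4.69 and 4.47 with GSI, where the groups did not overlap and the difference of 0.16 did not pass (limma, adjusted p = 0.440). With 1 array left out this difference ran from 0.052 to 0.27. The dimmer one read 2.92 and 3.09 with DMSO and 3.01 and 2.96 with GSI, with overlapping groups and a difference of -0.023. The direction of Eomes therefore rested on the probe set chosen.

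**Figure D2:**
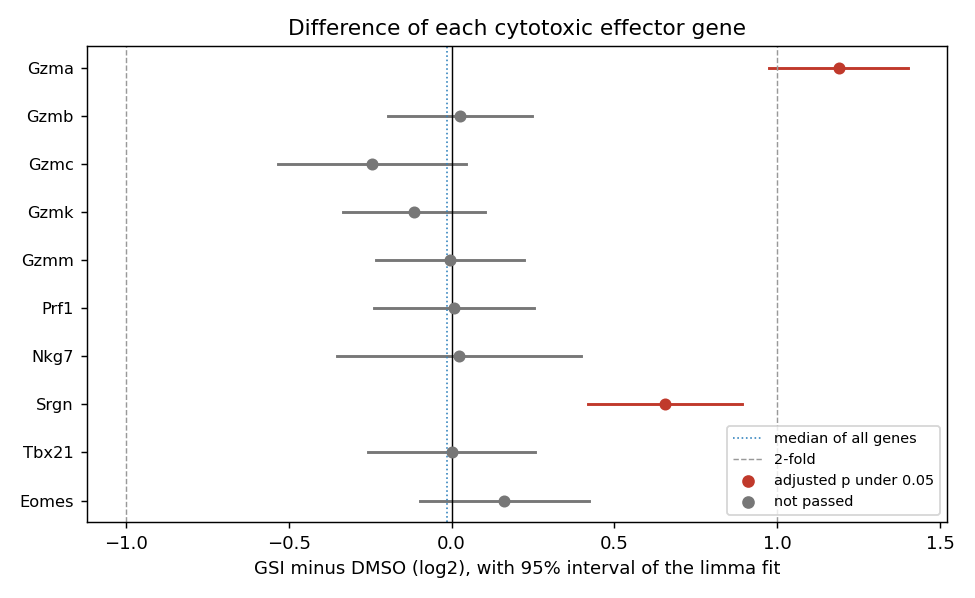
Difference between GSI and DMSO for each of the 10 genes, on the log2 scale, with the 95% interval of the limma fit; red marks an adjusted p under 0.05, the dotted line the median of all genes and the dashed lines a 2-fold difference. The intervals of Gzma and Srgn lie above 0, and those of the other 8 genes cross 0 and end short of 2-fold.

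Across the 8 genes that did not pass, the intervals reached from 0.691-fold at the lower end, for Gzmc, to 1.34-fold at the upper end, for Eomes. These bounds hold for the log2 values as deposited. Of the 12 probe sets, 7 read below the array median on all 4 arrays, and only those of Gzma, Srgn, Gzmm and Tbx21 read above it on all 4. RMA values understate differences where the signal is dim, and no background level was analysed here, so low expression and no expression cannot be told apart for them. A change in a small share of the cells and a change in every cell cannot be told apart in these bulk samples. In all, 5 of the 12 probe sets had groups that did not overlap, those of Gzma, Srgn, Gzmc, Gzmk and the brighter one of Eomes, where 46.4% of all probe sets did. Tested among all probe sets, 1 of the 12 was higher, that of Gzma, and 0 were lower by limma, and without adjustment 2 were higher and 0 lower at that threshold. The shares of all probe sets called were 0.948% higher and 0.446% lower.

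Leaving out 1 array ended both calls. Without DMSO replicate 1, without DMSO replicate 2, without GSI replicate 1 and without GSI replicate 2, Gzma had adjusted p-values of 0.0849, 0.0869, 0.117 and 0.0910 by limma, and Srgn 0.197, 0.161, 0.246 and 0.119. The differences themselves stayed between 1.14 and 1.24 for Gzma and between 0.57 and 0.74 for Srgn, on the log2 scale. In these fits the group with 1 array was assumed to vary like the other, and between 0 and 1 gene was called higher in the whole table.

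**Figure D3:**
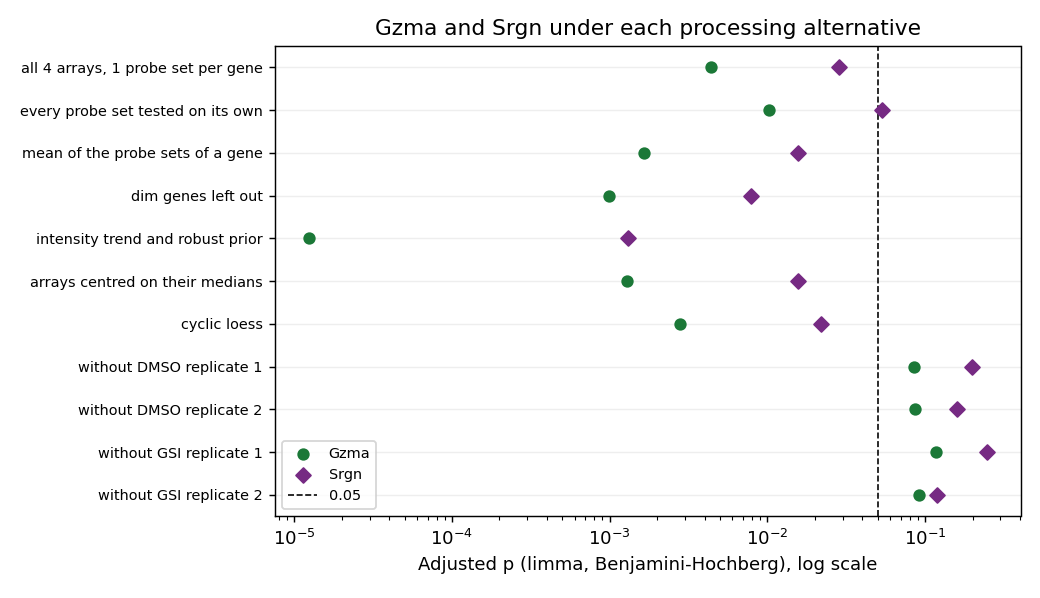
Adjusted p of Gzma (green circles) and Srgn (purple diamonds) by limma, on a log scale, with all 4 arrays and under the processing alternatives (rows). The replicate block is not shown, and the dashed line is 0.05. Gzma lies left of the line in the first 7 rows and Srgn in 6 of them, and both lie right of it when any 1 array is left out.

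The genes around these effectors were described through 10 lists with 113 measured genes that were not themselves members. Of these, 11 rose and 6 fell, 9.73% and 5.31% of the lists' genes, against 2.56% and 1.56% of all genes. Their median difference was 0.053 on the log2 scale. The lists hold known Notch targets and lysosomal genes, and they were drawn up with earlier results of these arrays known, so their counts are not independent evidence.

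All 5 other granzymes of the chromosome 14 cluster, Gzmd, Gzme, Gzmf, Gzmg and Gzmn, read below the array median on all 4 arrays. By limma 0 of them passed, with or without adjustment, and the one with the smallest p, Gzmn, differed by -0.15 on the log2 scale. These genes are close relatives, so the share of each in a probe set is uncertain. The related granule proteases of myeloid and mast cells, 8 measured, gave the same counts of 0, with Elane, encoding neutrophil elastase, at 0.29.

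Of the 4 lysosomal enzyme genes Ctsc, Ctsh, Ctsl and Gusb, 1 rose, Ctsl, encoding cathepsin L. It read 9.89 and 9.81 with DMSO and 11.39 and 11.23 with GSI, a 2.75-fold rise (limma, adjusted p = 0.00374). Ctsl differed by 1.14 on the log2 scale as the mean of its probe sets, against 1.46 for the brightest. The other 3 did not pass, with Ctsc at 0.0035, Ctsh at -0.12 and Gusb at -0.38 on the log2 scale. The median of the 4 was -0.057. Of 19 genes of granule biogenesis and exocytosis, 3 rose and 16 did not pass. In 16 of the 19 the GSI mean was the higher, by as little as 0.00027 on the log2 scale for Vamp7. The exact share of all genes with a higher GSI mean was not counted, but the median difference over all genes lay below 0, at -0.012. The median difference of the list was 0.18 on the log2 scale. Sytl1, encoding a synaptotagmin-like protein that binds Rab27 on secretory vesicles, rose 2.27-fold, from 7.10 and 6.97 to 8.23 and 8.21. Lyst, whose loss gives the giant granules of Chediak-Higashi syndrome, rose 1.87-fold, and Lamp2, a major protein of the lysosomal membrane, 1.38-fold. As the mean of its probe sets the difference of Lyst was 0.52 on the log2 scale, against 0.90 for the brightest. The Lamp2 call did not hold among all probe sets (limma, adjusted p = 0.0844).

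Serglycin carries sulphated sugar chains, and of 14 genes that build them 2 rose and 0 fell by limma; the unadjusted p was under 0.05 for 3 that read higher and 3 that read lower. Papss2, which makes the sulphate donor, rose 3.15-fold, from 8.42 and 8.51 to 10.28 and 9.97. Papss2 differed by 1.18 on the log2 scale as the mean of its probe sets, against 1.66 for the brightest. Ndst2, a sulphotransferase that modifies the heparin chain in mast cell granules, rose 2.11-fold, from 8.23 and 8.02 to 9.29 and 9.11. The groups did not overlap in these 2 genes, as in 46.4% of all probe sets, which adds nothing to the calls. The median of the list was 0.055.

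Of 7 granzyme and cathepsin inhibitors 0 passed by limma, and without adjustment 3 read higher and 0 lower at p under 0.05. Cst7, encoding the granule cystatin F, differed by 0.58 (adjusted p = 0.109). The death ligands and effector cytokines, 10 genes with Fasl, Ifng and Tnf among them, also gave 0 calls by limma, with or without adjustment. Ltb, encoding lymphotoxin beta, had their smallest p and differed by 0.37 (adjusted p = 0.241). Of 10 granzyme substrates 0 passed by limma, while 3 read lower and 0 higher at p under 0.05 without adjustment, and the median was -0.22. With the intensity trend and robust prior 3 were called lower, and 1 with dim genes left out. These 2 fits called 899 and 829 genes lower over the whole table, against 284 in the main fit. Bid, which granzyme B cleaves to set off mitochondrial death, differed by -0.50 (adjusted p = 0.103). It was called lower in both of these fits and did not pass in 5 of the 7 alternatives that kept all 4 arrays.

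**Figure D4:**
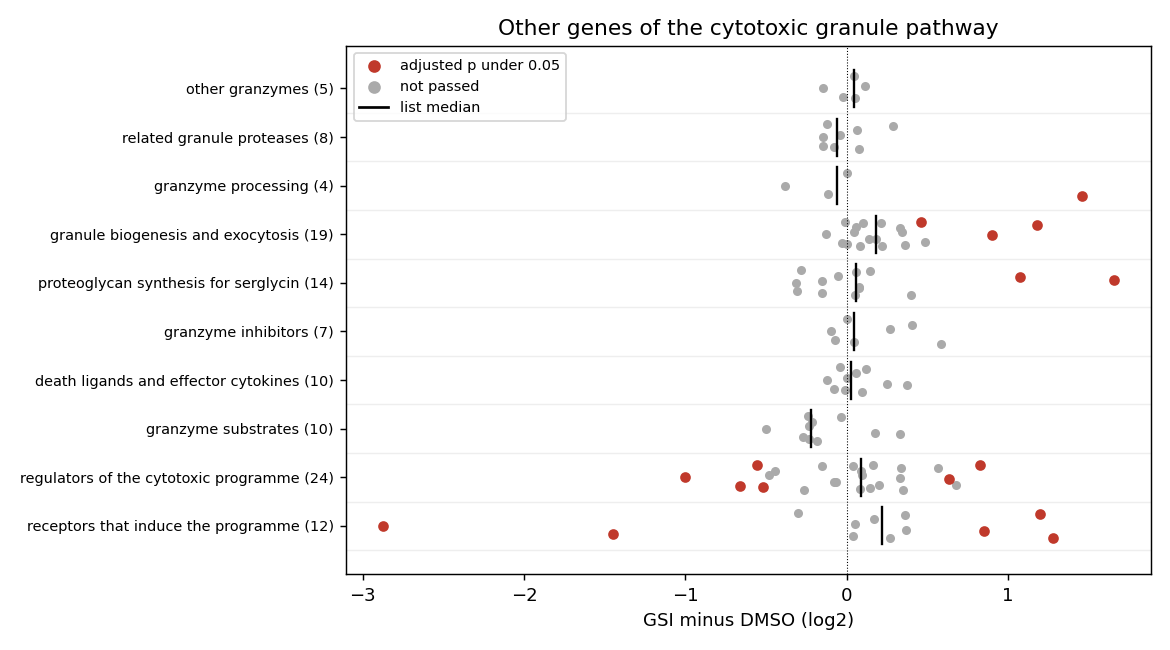
Difference between GSI and DMSO on the log2 scale (horizontal axis) for the genes of the 10 lists, with the number measured in brackets; each point is a gene, red where its adjusted p is under 0.05, and black bars are list medians. Most points lie close to 0, and the single widest difference, -2.87 for Il2ra, lies in the list of receptors.

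Regulators of the cytotoxic programme moved in both directions, 2 of 24 rising and 4 falling. Tox, a factor of T cell development, rose 1.77-fold and Gata3, which directs helper fate, 1.55-fold. Nfil3, a factor required for natural killer cells, fell by 1.00 on the log2 scale, from 5.69 and 5.71 to 4.61 and 4.78. Lef1, Notch1 and Irf4, the last a factor of activated T cells, fell by 0.66, 0.56 and 0.52 on that scale. The calls of Gata3, Notch1 and Irf4 did not hold among all probe sets (limma, adjusted p = 0.0733, 0.0694 and 0.0785). As the mean of its probe sets Irf4 differed by -0.33 and did not pass (limma, adjusted p = 0.115). None of these factors is a T-box gene, and both T-box genes stood among those that did not pass.

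Of 12 receptors whose signals induce effector genes, 3 rose and 2 fell. Il2ra, the interleukin-2 receptor chain CD25 and a known Notch target, fell from 8.83 and 9.11 to 6.11 and 6.07, a difference of -2.87 (limma, adjusted p = 0.00101). The mean of its probe sets differed by -2.33. Il15ra, which presents interleukin-15, fell from 7.71 and 7.41 to 6.07 and 6.16, a difference of -1.45. Il21r rose 2.42-fold, the costimulator Cd28 2.30-fold and the interferon receptor chain gene Ifngr1 1.81-fold, the last not holding among all probe sets (limma, adjusted p = 0.0526). The rise of Gzma thus stood beside falls of 2 of these receptor genes and rises of 3 in the same arrays. With any 1 array left out, 0 genes of the 10 lists were called higher, and 1, Il2ra, was called lower, when either DMSO array was the one missing.

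Markers of other cells that make granzymes or serglycin were read beside these results. Of 18 measured markers of the T lineage, 16 lay above the array median on all 4 arrays, among them Cd3d, Cd3e, Cd3g, Thy1 and Rag1, and 2, Cd2 and Cd5, below it. Among these, 6 rose and 2 fell, led by Cd8a (2.11-fold) and Cd8b1 (1.96-fold) upwards and Ptcra, the pre-T cell receptor alpha chain, downwards (-1.70). Cd247, Themis, Cd4 and Thy1 rose 1.75-fold, 1.62-fold, 1.68-fold and 1.44-fold, and Cd3g fell, with a difference of -0.47 on the log2 scale. The calls of Cd4, Thy1 and Cd3g did not hold among all probe sets (limma, adjusted p = 0.0558, 0.0770 and 0.0784). That of Cd247 did not hold as the mean of its probe sets, where its difference was 0.41 against 0.81 on the log2 scale (limma, adjusted p = 0.0806). Of 14 natural killer markers, 11 lay below the array median on all 4 arrays, including Ncr1 and Klrd1. Their mean log2 level was 4.01 and 3.90 in the controls and 3.98 and 3.89 with GSI. By limma 0 of the 14 passed, and without adjustment 1 read higher and 1 lower at p under 0.05. The smallest p belonged to Ctsw, encoding cathepsin W of killer cells, which read 6.27 and 5.79 with DMSO and 7.49 and 6.84 with GSI (limma, adjusted p = 0.0696). Ctsw passed in 5 of 7 alternatives that kept all 4 arrays, with adjusted p from 0.0280 to 0.112.

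Mast cells too hold serglycin and granule proteases. Of 11 mast cell markers 2 rose, Cpa3 (6.98-fold) and Kit (1.81-fold). As the mean of its probe sets the difference of Kit was 0.52 on the log2 scale, against 0.86 for the brightest. The mean log2 level of the 11 was 4.36 and 4.25 with DMSO and 4.71 and 4.49 with GSI. Their median difference, however, was -0.027 on the log2 scale, and 4 had the higher and 7 the lower mean with GSI. Of the 11, 7 lay below the array median on all 4 arrays. Among these were the high-affinity IgE receptor genes Fcer1a and Ms4a2 and the protease genes Tpsb2, Tpsab1, Mcpt4 and Cma1. The part of cells of this kind in the rise of Srgn was not tested. Of 9 B cell markers, 12 myeloid markers and 5 erythroid markers 0 passed by limma, and without adjustment 1 of each list read higher at p under 0.05: Vpreb1 (0.22), Itgam (1.05) and Gata1 (0.28), on the log2 scale. Itgam read below the array median on all 4 arrays and did not enter the fit with dim genes left out. At an adjusted p of 0.0561 by limma, it passed in 5 of 6 alternatives that kept all 4 arrays (0.0132 to 0.0935). Of 10 stromal and epithelial markers Pecam1 rose 1.56-fold and Pdgfrb fell by 1.28 on the log2 scale.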

How the data were processed

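Total RNA of 4 samples of the T29 line, 2 per group, was labelled with biotin and read on Affymetrix expression arrays. The deposited log2 values, 1 for each probe set on each array, were made by the authors with RMA per the submitters' processing notes, with version and settings not given in the sources used here. RMA corrects background, normalizes between arrays and summarises probes. Probe-level files were not used, so neither step could be repeated. Of 45101 probe sets 64 controls were left out, and of the other 45037, 34945 had 1 gene symbol, 932 several and 9160 none. Symbols were updated through RefSeq (GRCm38.p6) for 34741. Each gene was represented by its brightest 1-symbol probe set (18193 genes).

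Groups were compared by limma 3.58.1 under R 4.3.3 (lmFit, eBayes, group as the only term, two-sided, 5.80 total degrees of freedom), and all probe sets were fitted likewise. Fold changes are back-transformed log2 differences. Of these steps only the limma fit was tested on simulated data, with gene variances drawn from the prior fitted to these arrays. For arrays, the number of samples limits the precision. The members and lists were chosen with earlier results of these data known. Named by rule were all members, up to 6 called genes per list or the gene with the smallest p, and the neighbours of called members in gene order. The 27 called list genes followed through the alternatives are those of this rule. Other genes were named after their values were seen. List members with no 1-symbol probe set were not analysed here. Motifs were counted in 250 upstream bases of the RefSeq promoter table, which held all 10 members. Alternatives were every probe set tested, probe set means, dim genes left out, an intensity trend with robust prior, median centring, cyclic loess, a block for the replicate number, and each array left out.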

Additional observations from a re-analysis of the deposited data

How the results depend on the processing

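Gzma was called with 7 of 7 alternatives that kept all 4 arrays (adjusted p from 1.2e-05 to 0.0342) and Srgn with 5 of 7. The count of members called higher was 2 with all genes and 1 with every probe set tested. Replicate numbers were shared between groups, but nothing says they mark a shared culture, and the deviations of same-numbered arrays correlated at 0.070 over probe sets. With the replicate number as a block 1 member gene was called (Gzma, adjusted p = 0.0342; Srgn, 0.0823), 0 of the 12 probe sets, 147 genes higher and 70 lower over the whole table, and 6 and 3 in the lists. With 1 array left out, 0 members and 0 member probe sets were called, 0 to 1 gene higher and 0 to 5 lower over all genes, and 0 higher and 0 to 1 lower in the lists. Among all probe sets 2 members were called with the trend and robust prior, with centred arrays, with cyclic loess and with dim probe sets left out. Over all genes the counts higher and lower were 230 and 109 with every probe set tested, 1009 and 829 with dim genes left out, and 1042 and 899 with the trend and robust prior, where 12 list genes were lower. The cause of these shifts in the counts was not tested. Of 27 called genes named from lists, 21 passed when every probe set was tested, 25 as probe set means (Cd247 and Irf4 then at adjusted p = 0.0806 and 0.115), 16 with the replicate block and 0 to 1 with 1 array left out. With 1 array left out, the sign turned in 4 uncalled members, over ranges of -0.027 to 0.078 for Gzmb, -0.056 to 0.048 for Gzmm, -0.087 to 0.10 for Prf1 and -0.19 to 0.24 for Nkg7. That of Tbx21, 0 to begin with, ran from -0.11 to 0.11. Whether dim probe sets carry signal above background cannot be said without probe-level values.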

Other observations

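Tbx21 was 1 of 50 genes of 18193 whose group means were equal within 1e-06, Cst3, encoding cystatin C, being another. The natural killer marker Cd160, given here after its values were seen, read opposite to Ctsw, with a mean of 6.81 with DMSO and 5.89 with GSI, and did not pass either (limma, adjusted p = 0.0895). As the mean of its 4 probe sets Cd160 differed by -0.84 and passed (limma, adjusted p = 0.0301), and over the 7 alternatives with all 4 arrays its adjusted p ran from 0.0251 to 0.140, under the threshold in 3.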
